A study of Mus musculus with 9 samples.

Results

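The genes described here are 10 transcription factors that specify and maintain the melanocyte lineage, namely Mitf, Sox10, Pax3, Lef1, Tfap2a, Tfap2b, Snai2, Zeb2, Foxd3 and Irf4. They were chosen by name, and all 10 were found among the 16299 genes of the deposited table. Levels came from RNA sequencing of melanocytes that had been sorted by flow cytometry from mouse epidermis. There were 3 groups of 3 libraries. Knockout back and knockout tail libraries came from the back and the tail epidermis of Spry1flox/flox k14-Cre-ERT2 mice, and control tail libraries came from tail epidermis of Spry1flox/flox mice without the Cre, so that the floxed allele was common to all groups. The labels give no age and no inducing agent, and they do not tie replicates to different animals, so the p-values below reflect spread among these samples that may be technical in part or whole. No control back group was analysed here, so in the comparison of knockout back with control tail genotype and body site cannot be told apart.

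Keratin 14 is made by basal keratinocytes, and the Cre driven by its promoter is therefore aimed at the cells around the sorted melanocytes. Spry1, an inhibitor of receptor tyrosine kinase signalling, had normalised counts (recovered counts over each library's size factor) of 2283, 0 and 746 in the knockout back libraries, 3589.5, 1758 and 587 in the knockout tail libraries, and 1510.4, 1074 and 1285 in the control tail libraries. Spry1 in sorted melanocytes does not show whether it was deleted in keratinocytes.

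Melanocytes arise from the neural crest. SOX10 and PAX3 act on the promoter of Mitf, whose product is a basic helix-loop-helix factor that activates pigment genes and is often called the master regulator of the lineage. TFAP2 proteins, LEF1 and IRF4 work beside MITF at pigment genes, whereas FOXD3, SNAI2 and ZEB2 act earlier, in crest cells and precursors, and ZEB2 is also needed for melanocyte differentiation.

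Mitf has several start sites, and the most 3′ of them starts the melanocyte form. RefSeq promoter windows on GRCm38.p6, from 250 bases before to 50 bases after a start, matched 7 of the 10 genes with 16 windows. The windows of the melanocyte start of Mitf, chr6:97991533-97991832 on the plus strand, and of Foxd3, chr4:99656049-99656348 on the plus strand, are shown because they were the ones among the 16 that held a cyclic AMP response element (TGACGTCA), the sequence through which melanocortin signalling reaches Mitf. Capitals mark motif matches.
Mitf: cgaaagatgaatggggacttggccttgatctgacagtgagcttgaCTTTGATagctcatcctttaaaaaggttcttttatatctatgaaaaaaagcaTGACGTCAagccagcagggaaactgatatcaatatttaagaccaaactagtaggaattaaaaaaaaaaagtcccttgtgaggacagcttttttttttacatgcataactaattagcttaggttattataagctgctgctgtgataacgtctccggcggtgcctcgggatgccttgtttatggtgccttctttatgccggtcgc
Foxd3: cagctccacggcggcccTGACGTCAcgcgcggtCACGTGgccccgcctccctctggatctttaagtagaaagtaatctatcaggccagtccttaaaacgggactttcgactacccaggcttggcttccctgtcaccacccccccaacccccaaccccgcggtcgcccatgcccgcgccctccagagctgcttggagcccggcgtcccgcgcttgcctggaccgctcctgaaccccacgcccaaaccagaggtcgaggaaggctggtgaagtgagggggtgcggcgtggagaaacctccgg
In Mitf the response element begins at position -153 from the start and a LEF/TCF motif (CTTTGAT) at position -205. In Foxd3 the element begins at -233 and an E-box (CACGTG), the core that MITF proteins recognise, at -217. Searched on both strands, the response element was found in 1.79% of 32817 promoter windows, the LEF/TCF motif in 3.73% and CACGTG, which also matched in an alternative start of Lef1, in 7.15%. The E-box CATGTG (14.2% of windows) and the SOX motifs AACAAAG (5.85%) and AACAATG (3.78%) had no match in the 16 windows. CAGGTG, the core bound by ZEB and SNAI proteins, matched in Lef1 and in an upstream start of Mitf (20.2% of all windows), and the TFAP2 motif GCCNNNGGC in Irf4, Zeb2 and the same upstream start of Mitf (16.6%). The motifs were chosen with the sequences in view, no matches of different motifs overlapped in these windows, and a match is a description of letters, not of binding.

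The libraries differed before any gene is considered. Total counts per library, in units of M (mega), ranged over 50.9 to 60.8 for knockout back, 50.2 to 72.0 for knockout tail and 70.0 to 72.4 for control tail. Genes without a single count numbered 4628 and 6127 in the first and second knockout back libraries and 854 to 1739 elsewhere. The third library of either knockout group belongs to a separate set in the deposited values, from which a shift between the sets had been removed, and no control library lay in that set. The Y-linked gene Ddx3y had 1267, 160.2 and 2256 normalised counts in knockout back, 1125, 1913 and 0 in knockout tail, and 0 in all 3 control tail libraries. Xist, made from the inactive X chromosome of females, had 1414, 1481 and 2645 in knockout back, 4.04, 16.04 and 7358 in knockout tail, and 4223, 1416 and 3973 in control tail. All knockout back libraries thus held both transcripts, and the labels do not say whether animals were pooled. The first and second knockout tail libraries were high in Ddx3y and low in Xist, the reverse of control tail. The third knockout tail library, which lies in the separate set, was like control tail in both. In knockout tail versus control tail, sex and genotype therefore cannot be fully told apart, and the part of sex was not tested. Summed melanocyte markers (8 of 8 measured) ran from 4483392 to 4649699 normalised counts in knockout back, 5754874 to 5993829 in knockout tail and 3416102 to 4322989.7 in control tail. Summed keratinocyte markers (13 of 13 measured) ran from 196189.5 to 350949, 44609.7 to 618158 and 83603 to 305489 in the same order of groups. In bulk samples fewer cells of a type and less RNA per cell cannot be told apart.

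Sox10 was the most abundant of the 10 genes for its length in every group. On the scale of normalised counts per kb of annotated exon, Sox10 averaged 8137 ± 1115 in knockout back, 8445 ± 702 in knockout tail and 6746 ± 948 in control tail (SD, n = 3 each). Its level exceeded that of the next gene in all libraries of each group. In knockout back the order after Sox10 was Pax3 (4489), Mitf (2669), Tfap2b (2100.3) and Foxd3 (1011), in mean counts per kb. In knockout tail it was Pax3 (2708), Tfap2b (1934), Mitf (1653) and Snai2 (809). In control tail it was Tfap2b (3982), Pax3 (2322), Mitf (1439) and Snai2 (766). Tfap2b was thus in second place in control tail, above the range of Pax3, whereas in both knockout groups its range overlapped that of Mitf. The range of Pax3 lay above that of Mitf in all 3 groups. Lef1, Irf4, Tfap2a and Zeb2 were at the lower end of the order, with means of 105 to 314 counts per kb in knockout back, where Snai2 (292) stood between Irf4 and Zeb2, 136 to 231 in knockout tail and 126 to 297 in control tail. Most neighbours in that lower end had overlapping ranges, apart from Irf4 over Zeb2 in control tail. The order uses the union of annotated exons and would change with the isoforms in use.

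**Figure D1:**
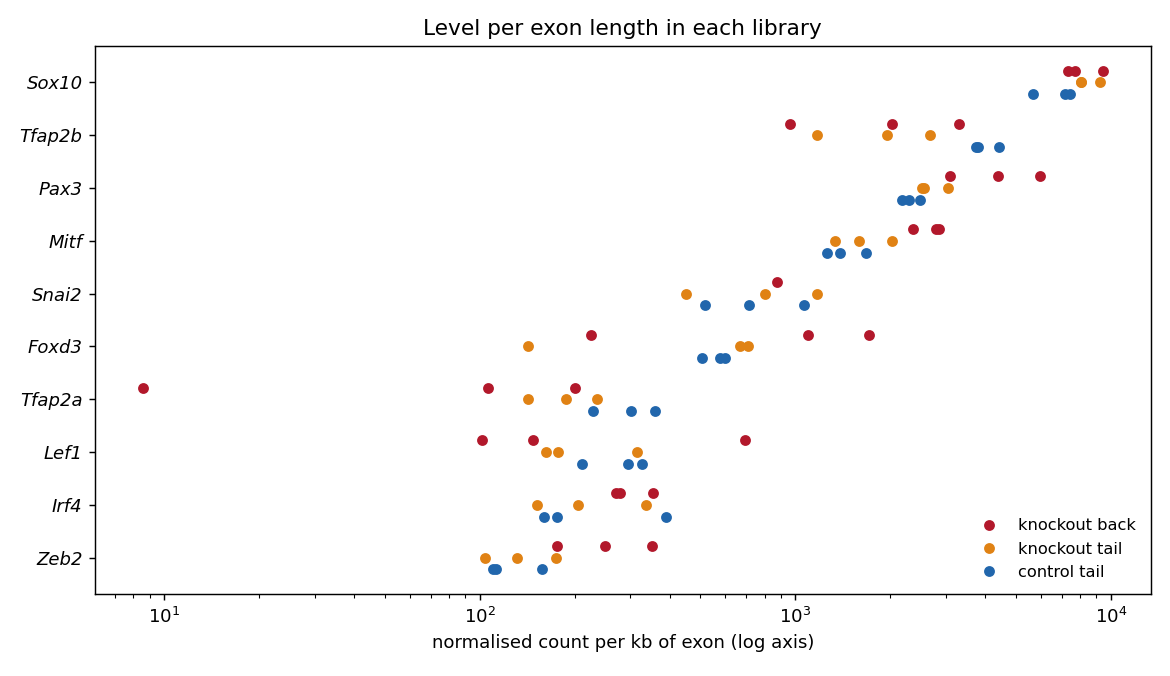
Normalised count per kb of exon (x axis, log scale) of each gene (y axis, ordered by the control tail mean) in each library; points are libraries, and the 2 knockout back libraries with 0 counts of Snai2 are not drawn. Sox10 lies to the right of every other gene in each group, and the Tfap2b points of both knockout groups lie left of all its control tail points.

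Mitf (chr6:97807052-98021349, plus strand) had normalised counts of 17331, 17629 and 14654 in the knockout back libraries, 12567, 8282 and 9879 in the knockout tail libraries, and 10400.1, 8557 and 7799.9 in the control tail libraries. All 3 back libraries lay above all 6 tail libraries, and the tail groups overlapped. The ratio of group means was 1.61 for knockout back over knockout tail and 1.85 for knockout back over control tail. In the limma fit across all genes, the log2 difference was 0.68 ± 0.21 (SE) between knockout back and knockout tail and 0.91 ± 0.22 between knockout back and control tail, with Benjamini-Hochberg adjusted p-values of 0.155 and 0.062. Neither passed the threshold of 0.05. With the third knockout tail library or the third knockout back library left out, which rests the estimate on the other set alone, the second difference was 0.94 with an adjusted p of 0.0471 at its lowest in limma. Between knockout tail and control tail the log2 difference was 0.23, with a 95% interval from -0.28 to 0.74.

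Pax3 (chr1:78101267-78197134, minus strand), a paired-box factor of melanocyte precursors and stem cells, had 19154, 27222 and 36941 normalised counts in knockout back, 18819.6, 15585 and 15860.2 in knockout tail, and 15383, 13481 and 14229 in control tail. The 3 groups did not overlap, with knockout back highest and control tail lowest. The gap between the lowest back library and the highest knockout tail library was small beside the spread of the back libraries. The gap between the lowest knockout tail library (15585) and the highest control tail library (15383) was smaller still. The limma log2 differences were 0.67 ± 0.22 for knockout back versus knockout tail (adjusted p = 0.176), 0.78 ± 0.23 for knockout back versus control tail (adjusted p = 0.0981) and 0.12 for knockout tail versus control tail (95% interval -0.43 to 0.66). With 1 library left out, the last of these ran from -0.0719 to 0.25.

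Sox10 (chr15:79154908-79165240, minus strand), an SRY-box factor required for melanocyte survival, had 23428, 22344 and 28704 normalised counts in knockout back, 24582, 24478 and 28237 in knockout tail, and 21823, 22648 and 17276 in control tail. Knockout tail lay above control tail without overlap, by a ratio of means of 1.25, and knockout back overlapped both tail groups. The limma log2 differences were 0.24 for knockout tail versus control tail (95% interval -0.14 to 0.61), 0.18 for knockout back versus control tail (-0.19 to 0.55) and -0.06 for knockout back versus knockout tail (-0.41 to 0.29). Sox10 varied little. The SD of its log2 normalised count over the 9 libraries was 0.22, and 0.413% of the 14058 genes with a mean normalised count of at least 50 had a smaller SD. Among genes with a mean between 10000 and 50000 normalised counts the share with a smaller SD was 2.79%. The SDs of Mitf and Pax3 on the same scale were 0.455 and 0.48.

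**Figure D2:**
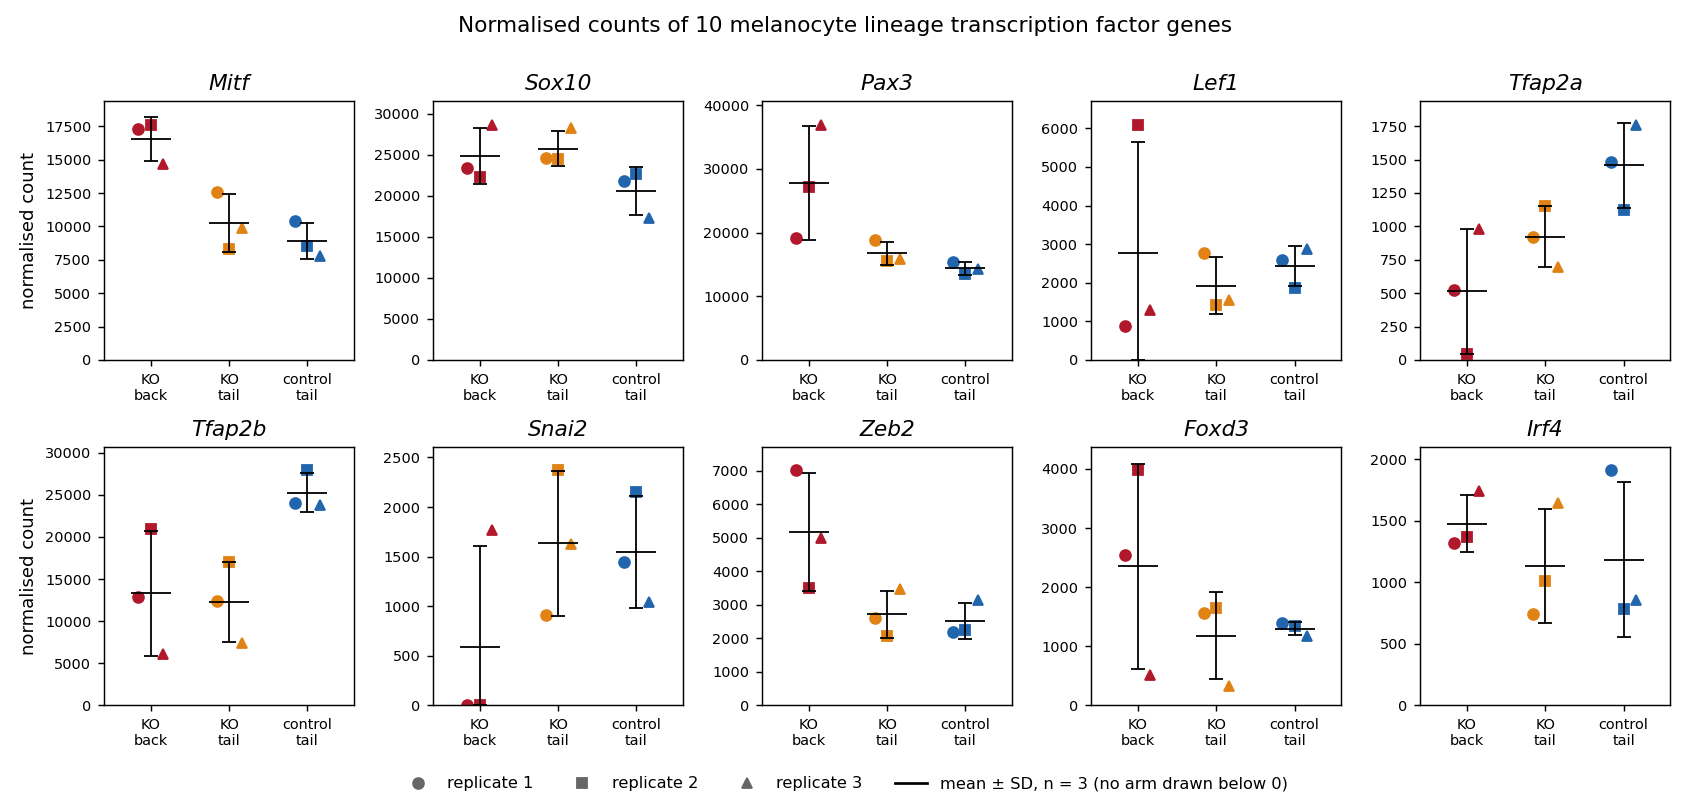
Normalised counts (y axes, linear from 0, scaled per gene) of the 10 genes in the knockout back, knockout tail and control tail groups (x axis, left to right); symbols are libraries by replicate number, horizontal bars are means and vertical bars SD (n = 3). Mitf, Pax3 and Zeb2 lie above all tail libraries in knockout back, Tfap2b lies below all control tail libraries in both knockout groups, and Snai2 is at 0 in 2 back libraries.

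Tfap2b (chr1:19208914-19238576, plus strand), which encodes the AP-2β member of a family that acts with MITF at pigment genes, had 12875, 20943 and 6118 normalised counts in knockout back, 12371, 16978 and 7427 in knockout tail, and 24032, 27919 and 23756 in control tail. All 6 knockout libraries lay below all 3 control libraries. The ratio of means was 0.528 for knockout back over control tail and 0.486 for knockout tail over control tail. The limma log2 difference was -0.67 ± 0.26 (SE) for knockout back versus control tail (adjusted p = 0.159) and -0.70 ± 0.26 for knockout tail versus control tail (adjusted p = 0.713, unadjusted p = 0.0257). It did not pass in either comparison, and between knockout back and knockout tail the log2 difference was 0.03 (95% interval -0.53 to 0.59). The lowest values, 6118 and 7427, belong to the third back and the third knockout tail libraries, and the fit takes out the shift of that set.

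Its relative Tfap2a (chr13:40715302-40738376, minus strand), encoding AP-2α, had 521, 42.1 and 979.8 normalised counts in knockout back, 924, 1152 and 696 in knockout tail, and 1482, 1124 and 1762 in control tail. Knockout back lay below control tail without overlap, and knockout tail overlapped control tail through 1 library. The lowest value, 42.1, belongs to the second back library, which had the most genes at 0. The log2 differences in limma were -1.39 ± 0.56 for knockout back versus control tail (adjusted p = 0.177), -0.76 ± 0.52 for knockout back versus knockout tail (adjusted p = 0.479) and -0.63 for knockout tail versus control tail (95% interval -1.91 to 0.66). Without the first and second back libraries, the difference for knockout back versus knockout tail became positive. That for knockout back versus control tail stayed negative but was smaller in size. Whether counting used strand is not given in the sources used here, and the antisense gene Gm26688 shares 380 bases of exon with Tfap2a. Gm26688 had 2636, 1741 and 511 counts in knockout back, 1973, 2755 and 365 in knockout tail, and 3479, 2524 and 2648 in control tail, more than Tfap2a in most libraries, so the level of Tfap2a is uncertain. The raw count ratio of Tfap2b to Tfap2a was 24.7, 497 and 6.24 in knockout back, 13.4, 14.7 and 10.7 in knockout tail, and 16.2, 24.8 and 13.5 in control tail. It is not scaled for length and serves only to compare libraries, in which the back group was the least even.

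Foxd3 (chr4:99656299-99658622, plus strand), a forkhead repressor of melanocyte fate in crest cells, had 2547, 3978 and 523 normalised counts in knockout back, 1556, 1648 and 332 in knockout tail, and 1391, 1338 and 1173 in control tail. The third library of each knockout group was far below the other libraries of its group and below all control libraries, and the other 4 knockout libraries lay above all controls. The limma log2 differences, which adjust for the set, were 0.98 ± 0.38 for knockout back versus control tail (adjusted p = 0.169), 0.67 ± 0.36 for knockout back versus knockout tail (adjusted p = 0.367) and 0.31 for knockout tail versus control tail (95% interval -0.58 to 1.20). The last of these was -0.26 when the removed shift was put back and group was the only term.

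Foxd3 and Tfap2b shared this split of the knockout libraries. Both were lower in the third back and the third knockout tail libraries than in the other 4 knockout libraries, which 8.77% of all genes were too, and the shift removed before deposit from the smaller set relative to the larger was -1.42 for Foxd3 and -1.43 for Tfap2b on the log2 scale. Sox10 and Irf4 were higher in those libraries, as 15.4% of genes were. Summed keratinocyte markers were highest in the same pair, at 350949 normalised counts in the third back library and 618158 in the third knockout tail library, against 196189.5 and 204528 in the other back libraries and 44609.7 and 93511 in the other knockout tail libraries. The part of keratinocyte RNA in the levels of Foxd3 and Tfap2b was not tested.

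Zeb2 (chr2:44983632-45117395, minus strand), a zinc-finger E-box repressor, had 7022, 3517 and 4984 normalised counts in knockout back, 2616, 2068 and 3472 in knockout tail, and 2190.3, 2242.5 and 3133 in control tail. The back libraries lay above all tail libraries, the nearest by 3517 against 3472. The log2 difference was 0.80 ± 0.32 for knockout back versus knockout tail (limma adjusted p = 0.245), 0.80 ± 0.34 for knockout back versus control tail (limma adjusted p = 0.199) and 0.00 for knockout tail versus control tail (95% interval -0.79 to 0.79). The antisense gene Zeb2os shares exon bases with Zeb2 and had at most 37 counts in any library.

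Snai2 (chr16:14705852-14709385, plus strand), also an E-box repressor, which melanocyte precursors need to survive, had 0, 0 and 1769 normalised counts in knockout back, 909.9, 2372 and 1624 in knockout tail, and 1443, 2156 and 1047 in control tail. The libraries at 0 were the first and second back libraries. By sampling of counts alone, a 0 there was taken to allow up to 3 counts, or 3.23 and 3.51 normalised counts. That limit does not cover transcripts lost before sequencing. The third back library was within the range of both tail groups. The fitted log2 differences of -1.95 ± 0.67 for knockout back versus knockout tail (adjusted p = 0.185, limma) and -2.45 ± 0.71 for knockout back versus control tail (adjusted p = 0.0911, limma) rest on those libraries. Without them the differences were 0.0972 and 0.103. With the third knockout tail or the third back library left out instead, they were -2.97 and -2.96, with limma adjusted p-values down to 0.0225 and 0.0143. The same back libraries held 4628 and 6127 genes at 0. Between knockout tail and control tail the ratio of means, which has no set adjustment, was 1.06. The log2 difference fitted with the set term was -0.50 (95% interval -2.15 to 1.14), so the signs were opposite. With the shift put back and group as the only term, or without the first and second back libraries, the log2 difference was slightly positive.

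Lef1 (chr3:131110471-131224356, plus strand), a nuclear partner of β-catenin in WNT signalling, had 892, 6098 and 1295 normalised counts in knockout back, 2765, 1430.2 and 1557 in knockout tail, and 2593, 1859 and 2864 in control tail. The second back library was the highest and the first the lowest of all 9, and all groups overlapped. The 95% limma intervals of its log2 differences were -1.27 to 1.48, -1.60 to 1.32 and -1.49 to 1.43 for knockout back versus knockout tail, knockout tail versus control tail and knockout back versus control tail.

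Irf4 (chr13:30749226-30766976, plus strand), an interferon regulatory factor that acts with MITF at Tyr and is also made by lymphoid and dendritic cells, had 1322, 1367 and 1739 normalised counts in knockout back, 746, 1007 and 1644 in knockout tail, and 1911, 781 and 859.7 in control tail. All groups overlapped, and the highest library was a control. The log2 differences were 0.32 for knockout back versus knockout tail (95% interval -0.58 to 1.23), 0.14 for knockout back versus control tail (-0.82 to 1.10) and -0.18 for knockout tail versus control tail (-1.14 to 0.78). Cd74, which antigen-presenting cells such as Langerhans cells make in quantity, had 1659, 4428 and 12517 normalised counts in knockout back, 107, 6.75 and 5137 in knockout tail, and 3.94, 134 and 2.43 in control tail. The part of such cells in the level of Irf4 was not tested.

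Set side by side, none of the 10 genes passed limma's adjusted threshold of 0.05 in any of the 3 comparisons. The share of all 16299 genes that passed was 0.436% for knockout back versus knockout tail, 0.0614% for knockout tail versus control tail and 3.34% for knockout back versus control tail. At an unadjusted p under 0.05 the counts were 4, 1 and 7 of 10, beside 18.2%, 5.7% and 24.6% of all genes in the same order. In normalised counts, 3 genes (Mitf, Pax3 and Zeb2) lay above without overlap and 0 below for knockout back versus knockout tail, where 4.55% of all genes lay above and 10.4% below. For knockout tail versus control tail 2 genes (Sox10 and Pax3) lay above and 1 (Tfap2b) below, where 9.71% and 9.31% of genes did. For knockout back versus control tail 3 (Mitf, Pax3 and Zeb2) lay above and 2 (Tfap2a and Tfap2b) below, where 7.41% and 15.6% of genes did. The median log2 difference of the 10 genes was 0.22, -0.07 and 0.16 in these 3 comparisons, beside -0.18, -0.07 and -0.26 over all genes. The comparisons share libraries, so their values are not independent of each other.

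**Figure D3:**
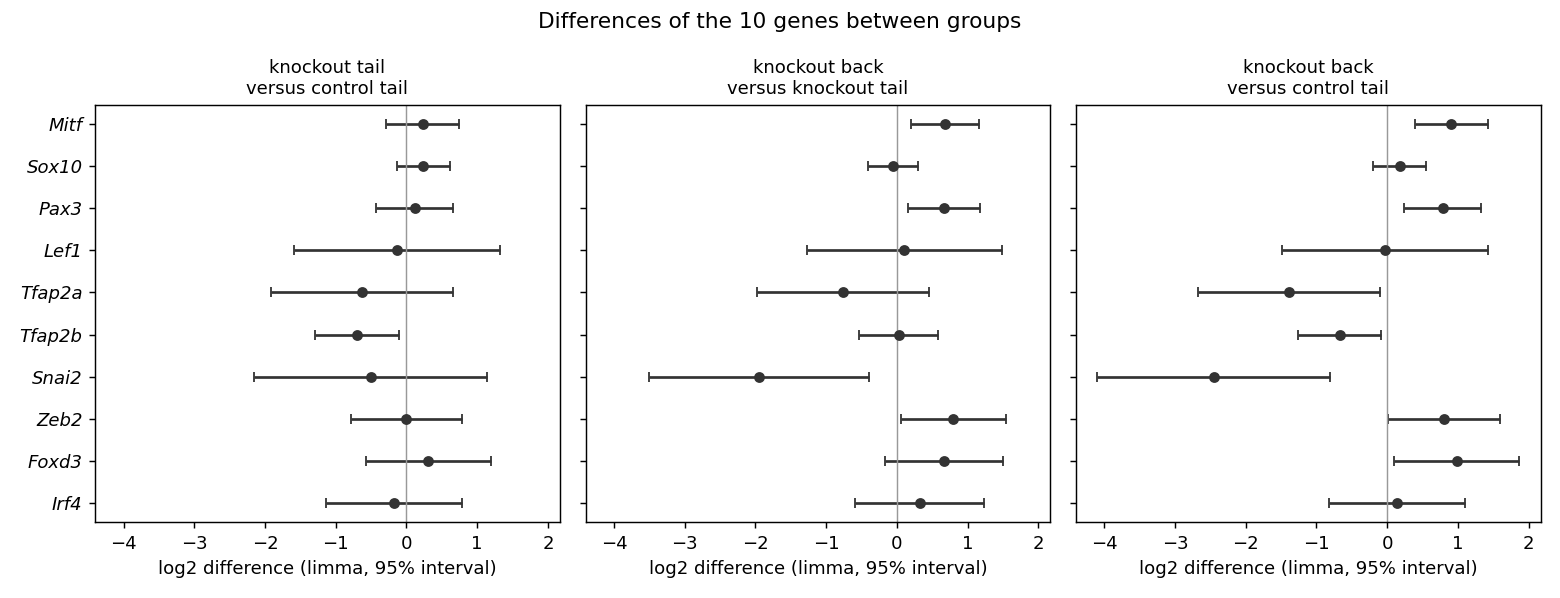
Log2 difference (x axis) of each gene (y axis) in the 3 comparisons, from the limma fit across all genes with group and library set as terms; points are estimates and bars 95% intervals, not adjusted for multiple testing. The intervals of Mitf, Pax3, Zeb2 and Snai2 exclude 0 in both comparisons of knockout back, and that of Tfap2b in both comparisons with control tail, but no adjusted p-value is under 0.05.

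Known targets of MITF were then examined (20 of 20 measured). For knockout tail versus control tail, 1 target passed in limma, Tyrp1, an enzyme of melanin synthesis, which had 1147338, 1089159.6 and 2205193 normalised counts in knockout tail against 611229, 487911 and 534808 in control tail (log2 difference 0.99 ± 0.11, adjusted p = 0.0483). Trpm1, the gene with the next smallest p, had a log2 difference of 0.85 and an adjusted p of 0.412. The median of the 20 targets was 0.51 beside -0.07 over all genes, 17 differences were positive, and 11 targets lay above control tail without overlap (9.71% of all genes did) and 0 below. The summed targets ran from 6340599 to 6690797 normalised counts in knockout tail and 3854585 to 4875068 in control tail, while Mitf itself overlapped between these groups. Most of the sum in each of these libraries came from Tyrp1, Dct and Pmel. Tyr, Tyrp1, Dct, Pmel, Mlana, Slc45a2 and Gpr143 are also on the list of melanocyte markers. That list likewise summed higher in knockout tail (5754874 to 5993829) than in control tail (3416102 to 4322989.7). The sums are therefore not separate results, and the part of melanocyte content in the target sum was not tested. Tyrp1 did not pass in any of the 9 fits that left out 1 library, where its adjusted p lay between 0.0877 and 0.367, and it passed in 2 of 10 other settings. With quantile normalization its difference was 0.12 (limma adjusted p = 0.997).

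For knockout back versus knockout tail, 2 of the 20 targets passed in limma, both higher in knockout back, where 0.436% of all genes passed. Mlana, a melanosome protein, had 633897, 597628 and 353409 normalised counts in knockout back and 319579, 316496 and 181280.3 in knockout tail (log2 difference 0.95, limma adjusted p = 0.0197). Bcl2, an inhibitor of cell death, had 9702, 7974 and 9611 in knockout back and 2353, 2137 and 2193 in knockout tail (log2 difference 1.82, limma adjusted p = 0.0475). The median of the targets was -0.30 beside -0.18 over all genes. Of the 20 differences 8 were positive, beside 36.7% of all genes. Without overlap, 3 targets lay above knockout tail and 5 below, beside 4.55% and 10.4% of all genes. Tyrp1 was lower in knockout back, with a log2 difference of -0.65 (limma adjusted p = 0.0569). Both genes failed in limma with either the first control, the first knockout back or the first or second knockout tail library left out, with adjusted p-values of 0.0572 to 0.194, and Bcl2 also without the second or the third control or the second back library, at 0.0520 to 0.0850. With quantile normalization the difference was 0.35 for Mlana (limma adjusted p = 0.210) and 1.78 for Bcl2 (limma adjusted p = 0.0422).

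For knockout back versus control tail, 5 of the 20 targets rose and 1 fell in limma, where 3.34% of all genes passed. Those that rose were Mlana (log2 difference 1.05, adjusted p = 0.00862), Trpm1 (1.55, adjusted p = 0.0242), a cation channel, Rab27a (2.31, adjusted p = 0.0434), which links melanosomes to actin, Met (1.71, adjusted p = 0.0248), a growth factor receptor, and Bcl2 (1.97, adjusted p = 0.0248). Slc24a5, an ion exchanger of the melanosome, fell by 0.67 (adjusted p = 0.0439) and had 178524, 192363 and 148994 normalised counts in knockout back against 318675, 334357 and 259787 in control tail. The median of the targets was 0.28 beside -0.26 over all genes. Of the 20 differences 13 were positive, beside 33.9% of all genes. Without overlap, 8 targets lay above control tail and 1 below, beside 7.41% and 15.6% of all genes. Mlana passed in all 9 fits that left out 1 library and in 6 of 10 other settings, and its difference was 0.58 (limma adjusted p = 0.0607) with quantile normalization, 0.78 (limma adjusted p = 0.182) with the shift put back and 0.97 (limma adjusted p = 0.0726) with the replicate block. The other 5 lost the call in at least 6 of these 9 fits, with limma adjusted p-values up to 0.135, and kept it without the third knockout tail or the third back library.

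Among 9 of 12 SOX10 targets measured, none passed in any comparison in limma, although some had unadjusted p-values under 0.05. Tyr had a log2 difference of -0.56 for knockout back versus knockout tail (adjusted p = 0.143), Dct one of 0.38 for knockout back versus control tail (adjusted p = 0.0900), and Dct and Ednrb had 0.32 and 0.68 for knockout tail versus control tail (adjusted p = 0.656 and 0.663). Dct, an enzyme of melanin synthesis, Tyr and Ednrb are on both target lists. Ednrb is also on the list of upstream signals below.

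Of 16 measured of 20 signals that act upstream of these factors, Kit and Ctnnb1 rose in knockout back versus control tail in limma. There 3.34% of all genes passed, and Kit is also on the list of melanocyte markers. Kit, a receptor tyrosine kinase that melanoblasts need, had 33965, 56421 and 57428 normalised counts in knockout back against 22118, 12819 and 15066 in control tail (log2 difference 1.36, adjusted p = 0.0452). Ctnnb1, which encodes β-catenin, had 49773, 44003 and 83897 in knockout back against 31483, 23361 and 23851 in control tail (0.85, adjusted p = 0.0438). Both lost the call when any library but the third knockout tail or the third back one was left out, with limma adjusted p-values of 0.0652 to 0.135. None of the 16 passed in the other comparisons, where Kit had the smallest p for knockout tail versus control tail (1.11, limma adjusted p = 0.334), followed by Ednrb (0.68, 0.663), and Kitl (-1.42, 0.214) and Ctnnb1 (0.42, 0.217) for knockout back versus knockout tail.

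**Figure D4:**
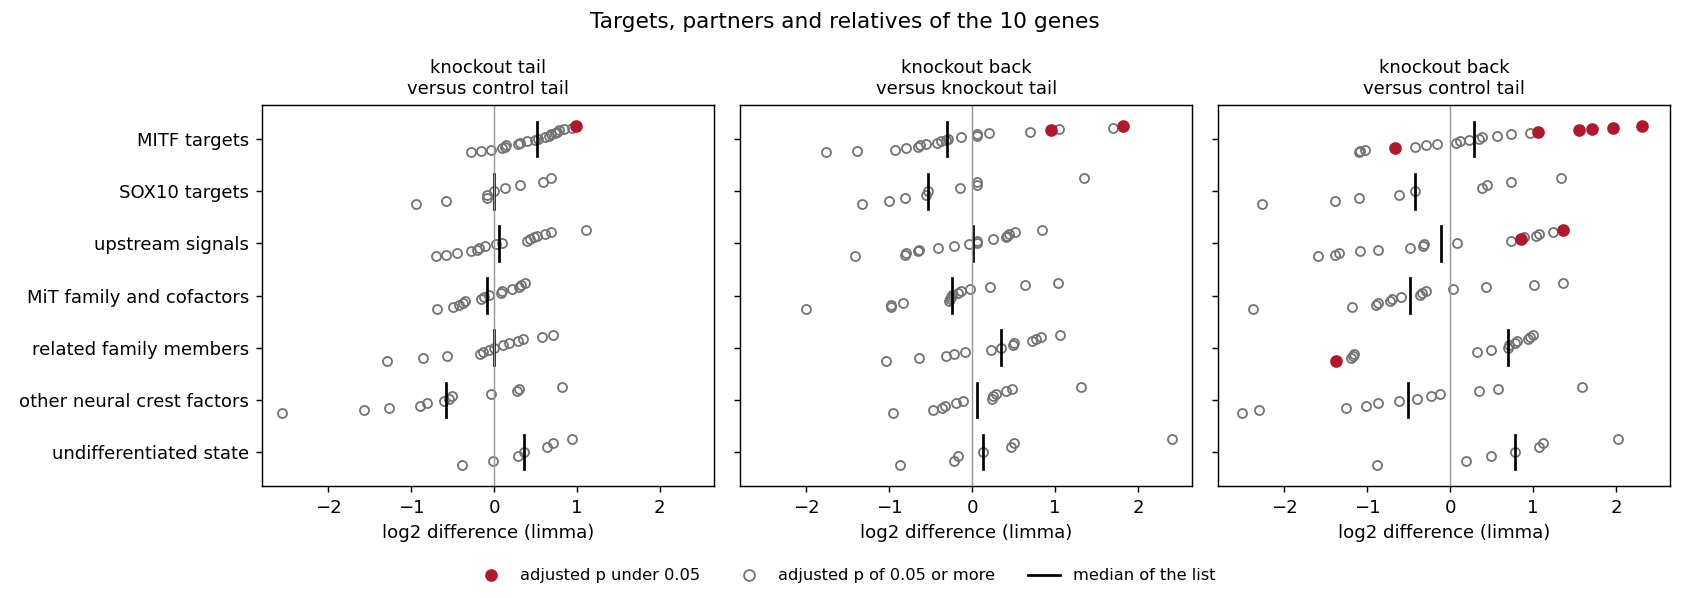
Log2 difference (x axis) of each measured gene in 7 lists (y axis) for the 3 comparisons; filled points have a limma adjusted p under 0.05, open points do not, and vertical bars are list medians. The MITF targets hold 1, 2 and 6 genes past the threshold from the left to the right panel, and the median of that list is 0.51, -0.30 and 0.28.

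Among 14 of 15 relatives and cofactors of MITF none passed in any comparison in limma. The smallest p-values there were those of Crebbp, an acetyltransferase, with log2 differences of 1.03 for knockout back versus knockout tail (adjusted p = 0.134) and 1.36 for knockout back versus control tail (adjusted p = 0.0546), and of Tbx3 for knockout tail versus control tail (-0.68, adjusted p = 0.868). Next after Crebbp was Chd7, which was lower in knockout back, with -0.84 and -1.18 in the same comparisons (limma adjusted p = 0.308 and 0.139). Of 13 of 22 family relatives of the 10 factors, 1 fell in knockout back versus control tail, where 3.34% of all genes passed. This was Sox8, an SRY-box gene of the same subgroup as Sox10. It had 0, 0 and 124 normalised counts in knockout back against 275, 386 and 117 in control tail (log2 difference -1.37, limma adjusted p = 0.0434), and 0, 2.53 and 154 in knockout tail. The back libraries at 0 were those with the most genes at 0, and Sox8 overlapped between the groups through the third back library. It passed only without the third knockout tail or the third back library among the 9 fits leaving out 1 library, with limma adjusted p-values of 0.0703 to 0.122 in the other 7, and its difference was -0.76 with quantile normalization. None of 12 of 16 other neural crest factors and none of 7 of 11 genes of an undifferentiated melanocyte state passed in limma. The crest factors nearest to passing were Id2 (-0.90, adjusted p = 0.661) for knockout tail versus control tail and Rbpj for knockout back versus knockout tail (1.31, adjusted p = 0.134) and versus control tail (1.59, adjusted p = 0.062). In the undifferentiated list, Egfr had the smallest p for knockout back versus knockout tail (2.41, adjusted p = 0.182) and versus control tail (2.02, adjusted p = 0.200). Next was Ngfr, which was lower in knockout back, with -0.87 and -0.88 (limma adjusted p = 0.263 and 0.212).

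Without the first and second knockout back libraries, which leaves 1 back library that is assumed to vary like the rest, none of the genes named above kept its call, although several estimates stayed near those of the full fit. The limma adjusted p-values were then 0.266 and 0.277 for Mlana and Bcl2 in knockout back versus knockout tail, 0.272 to 0.607 for the genes of knockout back versus control tail, and 0.124 for Tyrp1 in knockout tail versus control tail. For knockout back versus knockout tail the log2 differences were 0.96 for Mlana and 1.92 for Bcl2, and for Tyrp1 in knockout tail versus control tail 1.04. For knockout back versus control tail they were 1.06 for Mlana, 2.09 for Bcl2, 0.90 for Ctnnb1, 1.15 for Kit and -1.40 for Sox8, each near the estimate from all libraries. They were smaller in size for Rab27a (1.14), Trpm1 (0.72), Met (1.11) and Slc24a5 (-0.47).

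Markers of other cells were measured alongside. No keratinocyte, hair follicle, T cell, fibroblast, endothelial, Schwann or Merkel cell marker passed in any comparison in limma. Measured were 13 of 13 keratinocyte, 8 of 10 hair follicle, 5 of 9 T cell and 4 of 7 fibroblast markers. Of the endothelial list 1 of 7 was measured, of the Schwann list 8 of 9 and of the Merkel list 2 of 7. The lack of calls does not show that such cells were equal between groups. Of 10 of 12 Langerhans and myeloid markers measured, Cd74 and H2.Aa, both of antigen presentation, were higher in knockout back than in control tail. The share of all genes that passed there in limma was 3.34%. H2.Aa had 2954, 3159 and 3693 normalised counts in knockout back against 0, 4.96 and 0 in control tail (limma adjusted p = 0.0358). In knockout tail it had 0, 0 and 1281. Both calls were lost when any library but the third knockout tail or the third back one was left out, and without the first and second back libraries the log2 differences were 1.34 for Cd74, against 2.92 with all libraries, and 1.19 for H2.Aa, against 3.32 (limma adjusted p = 0.568 and 0.432). Most of the sum of that list came from 1 gene, Mfge8, with 27578, 16855 and 19369 normalised counts in knockout back, 26114, 32542 and 34839.8 in knockout tail, and 43819, 46367 and 39800.2 in control tail. The other 9 markers, set apart after their values were seen, summed to 7348, 22036 and 27449 in knockout back, 3481, 1857 and 13073 in knockout tail, and 1495, 3477 and 1642 in control tail. The sum of those 9 lay higher in knockout back than in control tail without overlap, and the third knockout tail library lay among the back libraries. Gene by gene, 3 of the 10 (Cd74, H2.Aa and H2.Ab1) lay above without overlap and 1 (Mfge8) below, beside 7.41% and 15.6% of all genes. The others overlapped, such as Csf1r, with 29.1, 29.2 and 19.6 in knockout back against 21.3, 12.4 and 17.0 in control tail. Cd207, a Langerhans cell marker, was not among the genes measured. The part of such cells in the differences above was not tested.

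The genes whose profile over the 9 libraries was most like that of each factor were found by the root mean square difference of centred log2 values, among 14058 genes with a mean normalised count of at least 50. The nearest were Slc39a13 to Mitf (0.156), Vcp.rs to Sox10 (0.134), Sat1 to Pax3 (0.209), Vasp to Lef1 (0.221), Smarce1 to Tfap2a (0.160), Nt5c to Tfap2b (0.184), Stac to Snai2 (0.232), Gm28439 to Zeb2 (0.241), Sox4 to Foxd3 (0.248) and Stk3 to Irf4 (0.236), each in log2 units. Sox4, an SRY-box factor, was the only transcription factor among these 10 nearest genes. The next after these were Lrrc45 and Hp1bp3 for Mitf, Ctdsp1 and Cct6a for Sox10, Ppp1cc and Gm15542 for Pax3, Gm13803 and Sirt6 for Lef1, Smarce1.ps1 and Ddx27 for Tfap2a, Micos13 and Gm10282 for Tfap2b, Sergef and Cwc27 for Snai2, Ddi2 and Krit1 for Zeb2, Znrf2 and Tmem65 for Foxd3, and Prrc2c and Cd47 for Irf4. Within the 10 factors the most alike pair was Mitf and Pax3, at 0.302. All these profiles share the same 9 libraries and their size factors.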

How the data were processed

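Trizol extraction, a SMART-Seq v4 low-input kit and paired-end Illumina NovaSeq reads were used, per the labels' protocols. The submitters' processing notes name DESeq2 and GRCm38. Not given in the sources used here: aligner, counter, strand setting. The deposited values are on a log2 scale (5.85 to 20.9), in 1 table of 16299 genes by 9 libraries. Their form was worked out from the values: a variance-stabilising curve that puts 0 counts at 7.98, less a shift between 2 sets of libraries (the third library of either knockout group, and the other 7), whose means agree in every gene within 7.14e-09. Of 255 possible splits the next best left a difference of 1.50. That step made no allowance for group.

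Undoing both gave whole counts for all 16299 genes, 16289 of them within 0.004 of a whole number and the 10 highest within 0.0122. Normalised counts are these divided by size factors and do not contain the shift removal. The test was limma 3.58.1 (R 4.3.3), trended and robust, fitted to the deposited values with group and library set as terms over all 9 libraries, and Benjamini-Hochberg adjustment at 0.05. The set term comes from the values, not the labels. The comparisons were knockout tail versus control tail, knockout back versus knockout tail and knockout back versus control tail. For genes of few counts the curve shrinks log2 differences. The recovery and the fit were tested on simulated data.

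Genes were picked by rule: all 10 factors, the 3 nearest profiles of each, and from each list those past the threshold. Where fewer than 2 passed in a comparison, the 2 of smallest p were picked, but not all of these are printed. The 10 factors and all lists were chosen with earlier results of these data known. Alternatives were group as the only term, the shift put back, limma-voom, log2 of the normalised count plus 1, quantile normalization, a filter at a mean of 10, no trend or robust moderation, a replicate block, the larger set alone, and leaving out libraries. Coordinates and exon lengths are GENCODE vM21 on GRCm38, counted from 1. The result of 1 gene of the lists is not reported here.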

Additional observations from a re-analysis of the deposited data

How the results depend on the processing

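Of 300 values of the 10 genes under 10 alternatives, 279 kept their direction and side of the threshold, 18 reversed and 3 came past it. For knockout tail versus control tail, Zeb2 was -0.0566 (group only), -0.00131 (log2 of count plus 1), -0.0608 (quantile normalization) and -0.0824 (without the first and second back libraries, and in the larger set alone). Snai2 was 0.0353 with the shift put back and 0.00632 in the last 2 of those settings, and Foxd3 -0.26 with the shift put back. Without the first and second back libraries, knockout back versus knockout tail gave Sox10 0.0233, Lef1 -0.20, Tfap2a 0.33, Tfap2b -0.26 and Snai2 0.10, and knockout back versus control tail Snai2 0.10 and Irf4 -0.18. Lef1 in that last comparison was 0.0761 with the replicate block and 0.0466 in the larger set.

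The larger set alone called 1 of the 10 genes, Snai2, for knockout back versus knockout tail, and 2, Mitf and Snai2, for knockout back versus control tail. With 1 library left out the count was 0 to 1 and 0 to 2 there, and 0 to 0 for knockout tail versus control tail; the calls came without the third knockout tail or the third back library. Leaving out 1 library moved the log2 difference through 0 for Lef1 (-0.36 to 0.19, -0.59 to 0.72 and -0.90 to 0.73 for knockout tail versus control tail, knockout back versus knockout tail and knockout back versus control tail), Irf4 (-0.35 to 0.12 and -0.0317 to 0.44 in the comparisons with control tail), Pax3 (-0.0719 to 0.25), Snai2 (-1.25 to 0.00632) and Zeb2 (-0.0824 to 0.16) in knockout tail versus control tail, and Tfap2b (-0.21 to 0.18) in knockout back versus knockout tail.

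Counts over all genes moved most. The 10 genes called for knockout tail versus control tail became 18 with log2 of count plus 1, 0 to 8 with a library left out, and 0 with group only, voom, no trend or robust moderation, the block, the larger set alone, or without the first and second back libraries. The 71 of knockout back versus knockout tail became 244 (group only), 190 (log2 of count plus 1), 31 (shift put back), 203 (voom), 133 (no trend or robust moderation), 3 (block), 1 (without the first and second back libraries), 1637 (larger set) and 2 to 1642 (1 left out). The 545 of knockout back versus control tail became 163 (group only), 217 (shift put back), 5 (block), 8 (without the first and second back libraries), 2371 (larger set) and 26 to 2385 (1 left out, the highest without the third back library). The cause was not tested. Same-numbered libraries had deviations correlated from -0.70 to 0.08, and differently numbered ones from -0.19 to 0.38. The -0.70 was between the third libraries of the knockout groups, which alone form the smaller set. In the deposited values the mean of that set was tied to that of the other 7 libraries. That value therefore cannot show pairing or its absence. The labels do not say whether replicate numbers pair samples, so the block is no test of a weaker effect.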
